A study of Mus musculus with 3 samples.

Results

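The cells described here were dermal fibroblasts marked by Col11a1 together with Lrrc15, Tnmd, Ednrb and Igfbp2, and they carried the working name of dermal sheath-like fibroblasts. A cell was taken when it held at least 2 unique molecular identifiers (UMIs, each standing for 1 captured transcript) of Col11a1, at least 1 UMI of at least 2 of the other 4 genes, and at least 20 UMIs of Col1a1 and Col1a2 per 10000. Cells in which 4 or more of the dermal papilla genes Wif1, Vcan, Crabp1, Hhip, Sostdc1 and Corin were detected were left out. By this rule 600 of 24858 cells were taken, namely 466 of 10428 cells of the normal library, 36 of 8008 of the IMQ library and 98 of 6422 of the IMQ+celastrol library. They are called Col11a1 cells below.

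All 3 libraries came from dorsal skin of C57BL/6 mice aged 7 weeks and were sequenced as 3′ transcripts of single cells. The normal library was from control mice that had been given glycerin. The IMQ library was from mice given imiquimod, a Toll-like receptor agonist that causes a psoriasis-like dermatitis, and the IMQ+celastrol library from mice given imiquimod and the plant compound celastrol. The labels did not give the number of animals behind a library, the doses or the days of treatment. With 1 library per group no test was possible, and treatment cannot be told apart from library. Intervals below cover counting error alone, at 95%.

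The dermal sheath is the layer of fibroblasts that wraps the hair follicle outside its basement membrane. Its lower part holds cells with a smooth muscle-like contractile apparatus that shorten the sheath when the follicle regresses and draw the dermal papilla upward, and the sheath also keeps progenitors that renew both compartments. The dermal papilla, the cluster of fibroblasts at the base of the follicle, signals to the epithelium above it. Endothelins are peptides that cause contraction of smooth muscle through the receptors encoded by Ednra and Ednrb. Col11a1 encodes a chain of a minor fibrillar collagen best known from cartilage, Lrrc15 a leucine-rich repeat membrane protein of activated fibroblasts, Tnmd the tendon protein tenomodulin, and Igfbp2 a binding protein of insulin-like growth factors.

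The libraries held between 6777 and 10565 barcodes and between 77880943 and 119831835 UMIs. The median depth of Col11a1 cells was 8536 UMIs (normal), 6898 (IMQ) and 8900 (IMQ+celastrol), with 2550 to 3039 genes. Pairs of libraries had 15 to 26 barcode sequences in common, and none of these belonged to Col11a1 cells in both libraries of a pair. Col11a1 cells made up 4.47% (4.08 to 4.88) of the normal, 0.450% (0.315 to 0.622) of the IMQ and 1.53% (1.24 to 1.86) of the IMQ+celastrol cells. With each cell thinned to 3000 UMIs before the rule was applied, and cells under 3000 UMIs left out, the share was 0.190% in IMQ and 0.358% in IMQ+celastrol. In the normal library it stayed within the interval above. The cells were chosen by their UMIs of the genes in the rule, so these shares and the levels of those genes are descriptions.

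Col11a1 and Ednrb were highest in the normal library. Of the barred papilla genes, Wif1 and Crabp1 were lowest there, but Vcan and Corin were found in the largest share of cells there. Levels are given as counts per 1e+06 UMIs of the cells summed (CPM). Col11a1 was at 1332 CPM in the Col11a1 cells of the normal library, 517 in those of the IMQ library and 381 in those of the IMQ+celastrol library. Ednrb was at 938, 232 and 19.5 CPM, and 347 of 466, 21 of 36 and 15 of 98 cells held a UMI of it. Wif1 was at 180.2, 449 and 257 CPM and Crabp1 at 38.0, 420.5 and 771 CPM. All of Lrrc15, Tnmd, Ednrb and Igfbp2 were detected in 299 of the 466 normal cells, in 2 of the 36 IMQ cells and in 2 of the 98 IMQ+celastrol cells. The marker combination was thus nearly complete in most cells of the normal library and incomplete in most cells of the other libraries. At the edge of the rule, 45, 14 and 27 Col11a1 cells held exactly 2 UMIs of Col11a1, and 68, 17 and 56 cells that met every other condition held 1 and were outside. Exactly 2 of the 4 further markers were detected in 76, 29 and 62 Col11a1 cells, against 76, 33 and 54 otherwise fitting cells with 1. Exactly 3 dermal papilla genes were detected in 65, 3 and 10 Col11a1 cells, against 13, 0 and 0 cells outside with 4.

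In the normal library the Col11a1 cells carried the transcripts of a contractile apparatus that other fibroblasts of the same skin held at low levels. Acta2, for the alpha actin of smooth muscle, was at 2980.2 CPM (2928 to 3033) in Col11a1 cells and 53.3 CPM in 1578 other fibroblasts, 55.9-fold (50.9 to 61.6) higher. Actg2, for the gamma actin of smooth muscle, was at 309 and 2.89 CPM, and Tagln, for the actin-binding protein transgelin, at 1665 and 112 CPM. The regulatory light chain gene Myl9, the tropomyosin genes Tpm1 and Tpm2, the calponin gene Cnn2, the light chain kinase gene Mylk and the integrin gene Itga8 were also at least 2-fold higher. Of the 14 genes of the contractile list, 10 passed the filter of a mean of at least 10 CPM, and 9 of these were at least 2-fold higher and 0 lower on the scale of CPM plus 1, with a median log2 ratio of 2.84. Of all 8181 genes compared in this way, 366 (4.47%) were at least 2-fold higher and 648 (7.92%) at least 2-fold lower, with a median of -0.02. The remaining gene, Smtn, for smoothelin, was 1.85-fold (1.60 to 2.14) higher at 84.6 CPM.

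**Figure D1:**
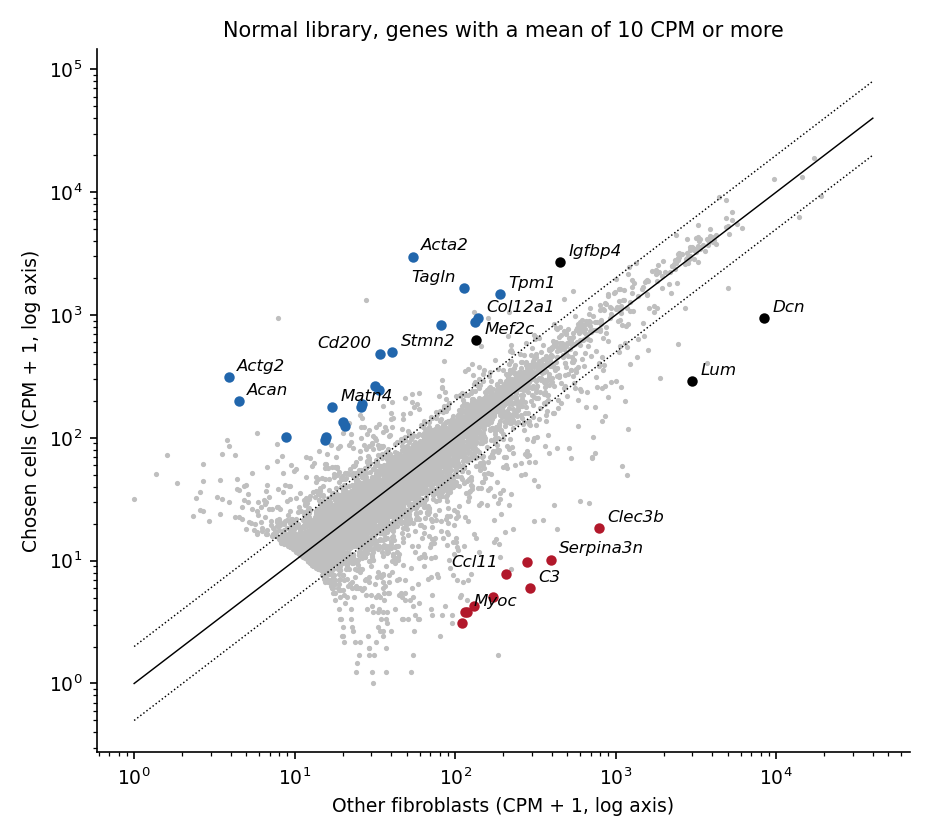
Level of each gene in Col11a1 cells (vertical axis, CPM plus 1, log scale) against other fibroblasts (horizontal axis, same unit) of the normal library, for genes with a mean of at least 10 CPM. Blue points are the 20 genes with the highest ratio outside the rule and red points the 10 with the lowest by the naming rule, black points are 4 further genes of the text, the solid line marks equal levels and the dotted lines 2-fold differences. Acta2, Actg2, Tagln and Acan lie far above the lines, and C3, Clec3b, Dcn and Lum far below.

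The contractile set of the Col11a1 cells was partial. Cnn1, for basic calponin, was at 4.49 CPM, Lmod1, for leiomodin, at 2.36, Des, for desmin, at 11.6 and Kcnmb1, for a potassium channel subunit, at 0.236, below the filter. In the 206 cells of the contractile gate, which have pericyte and smooth muscle markers and no Pdgfra, these genes were at 201, 357, 590.0 and 55.8 CPM. Acta2 was at 15586 CPM there, 5.23-fold above the Col11a1 cells. The defining pericyte and smooth muscle genes Rgs5 and Myh11 were at 4.96 and 10.6 CPM in the Col11a1 cells against 1792 and 2719.6 CPM in the contractile gate, and Kcnj8 had no UMI. Other markers of that list were above other fibroblasts: all 5 that passed the filter (Actg2, Acta2, Tagln, Mcam and Cspg4) were higher, with a median log2 ratio of 3.88. The 12 markers summed to 5155 CPM in Col11a1 cells, 226 in other fibroblasts and 34759 in the contractile gate, and 2 of them were at 0 in Col11a1 cells. The part of mural cells in these levels was not tested.

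The contractile signal was present in most cells of the normal library. After each cell was thinned to 3000 UMIs, which left out 22 of the 466 cells, the median Col11a1 cell held 17 UMIs (quartiles 6 and 32) of Acta2, Tagln, Myl9, Tpm1, Tpm2 and Actg2 together, against 1 in other fibroblasts, 4 in the dermal papilla gate and 136 in the contractile gate. At least 10 of these UMIs were found in 67.1% of the Col11a1 cells and 2.30% of the other fibroblasts. Acta2 had a UMI in 77.5% of the thinned Col11a1 cells (83.5% before thinning). The same share was 5.66% in other fibroblasts, 1.72% in keratinocyte gate cells and 2.25% in T cell gate cells, types that should lack the gene. In the IMQ and IMQ+celastrol libraries the medians of the 6 genes were 3.5 and 4 UMIs, and 30.6% and 26.5% of the Col11a1 cells held at least 10.

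**Figure D2:**
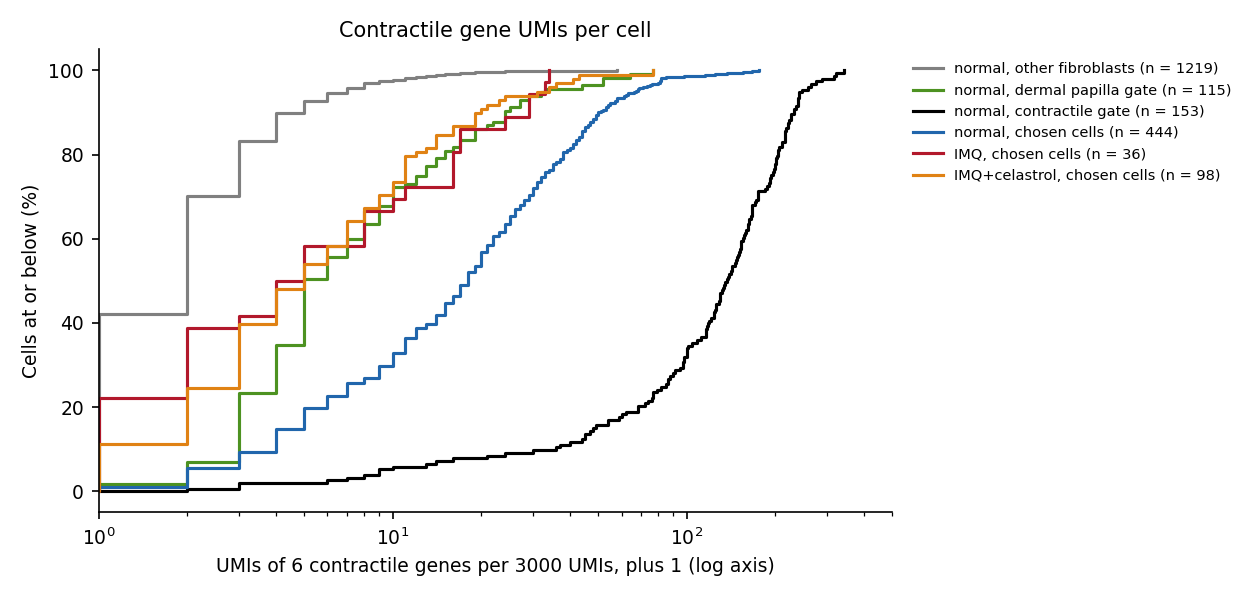
Cumulative share of cells (vertical axis, %) by the summed UMIs of Acta2, Tagln, Myl9, Tpm1, Tpm2 and Actg2 after thinning each cell to 3000 UMIs (horizontal axis, UMIs plus 1, log scale). The line of the 444 Col11a1 cells of the normal library lies between those of other fibroblasts and of the contractile gate. The IMQ and IMQ+celastrol Col11a1 cells have medians near that of the normal dermal papilla gate. More of the IMQ and IMQ+celastrol cells are at 0 (22.2% and 11.2%) than of the papilla gate cells (1.74%).

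The promoters of these genes are shown because the contractile genes moved together in the normal library and because serum response factor, the transcription factor that drives many smooth muscle genes, binds the CArG box, a pair of C, a run of A or T and a pair of G. The 250 bases before the start site were searched on both strands, which for this self-complementary motif give the same matches, in RefSeq promoters of GRCm38.p6. An exact match stood in 482 of 32851 promoters (1.47%), and a match with at most 1 G or C in the run in 2823 (8.59%). Of the 12 contractile genes with a promoter in the table, 2 held an exact match and 3 a match of the wider kind. They are printed 5′ to 3′ on the strand of the gene and end just before the start site, with the matches in capitals. Acta2 (chr19:34255374-34255623, minus strand) had wider matches beginning 84 and 34 bases before the start, Cnn2 (chr10:79988350-79988599, plus strand) an exact match at 56 bases, and Myl9 (chr2:156775214-156775463, plus strand) an exact match at 161 bases and a wider match at 99 bases.
Acta2: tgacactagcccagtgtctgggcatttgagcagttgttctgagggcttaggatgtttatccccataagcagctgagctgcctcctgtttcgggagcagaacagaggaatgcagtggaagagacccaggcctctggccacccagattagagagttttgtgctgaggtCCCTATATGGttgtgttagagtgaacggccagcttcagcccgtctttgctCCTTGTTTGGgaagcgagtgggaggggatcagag
Cnn2: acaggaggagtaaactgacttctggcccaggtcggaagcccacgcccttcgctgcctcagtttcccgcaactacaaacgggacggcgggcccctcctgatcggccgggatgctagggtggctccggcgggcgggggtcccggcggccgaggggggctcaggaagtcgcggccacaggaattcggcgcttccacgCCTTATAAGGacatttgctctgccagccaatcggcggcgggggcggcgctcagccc
Myl9: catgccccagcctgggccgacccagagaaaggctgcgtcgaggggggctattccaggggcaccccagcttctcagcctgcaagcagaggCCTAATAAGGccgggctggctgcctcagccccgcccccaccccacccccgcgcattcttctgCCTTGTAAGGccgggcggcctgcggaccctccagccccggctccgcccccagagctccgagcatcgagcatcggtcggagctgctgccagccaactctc
A match describes these letters and shows no binding. The other 9 promoters, those of Tpm1, Tpm2, Mylk, Smtn, Itga8, Cnn1, Des, Kcnmb1 and Lmod1, held no match within this window.

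Some other genes known from the dermal sheath were higher as well. Of 8 further sheath genes that passed the filter, 4 were at least 2-fold higher than in other fibroblasts and none was lower. Acan, for the cartilage proteoglycan aggrecan, was at 198 CPM (185 to 212) in Col11a1 cells and 3.49 CPM in other fibroblasts, 56.8-fold (39.3 to 85.4) higher. Mef2c, for a transcription factor of muscle, was at 624 and 135 CPM. Tnn, for tenascin W, was 7.04-fold (5.08 to 9.91) higher at 40.6 CPM, and Cspg4, for the proteoglycan NG2, 4.61-fold (3.79 to 5.63) higher at 81.5 CPM. The other 4 genes of this list, Itga5, Itga9, Hic1 and Col15a1, were within 2-fold. Among cartilage and tendon genes, Acan, the matrilin genes Matn4 and Matn2 and the thrombospondin gene Thbs4 were higher, Cilp and Mkx were lower, and 9 were compared. Sox9, the master regulator of cartilage, was at 15.6 CPM in Col11a1 cells and 15.3 in other fibroblasts, so the cartilage genes were not accompanied by a higher level of it.

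Matrix genes differed in both directions. Of 5 fibrillar collagen genes Col27a1 was at least 2-fold higher and Col5a3 and Col3a1 lower, with a median log2 ratio of -0.27. Of 15 other collagen genes 4 (Col12a1, Col8a2, Col6a6 and Col4a2) were higher and 2 (Col18a1 and Col16a1) lower, with a median of 0.60. Col12a1, for a collagen that binds to the surface of fibrils, was at 942 CPM against 137. Fbn2, for the microfibril protein fibrillin 2, was at 264 against 30.8 CPM, and Nid2, for the basement membrane protein nidogen 2, at 177 against 24.8 CPM. Some of the small proteoglycans that coat collagen fibrils were lower. Dcn, for decorin, was at 941 against 8382 CPM (8.91-fold (8.63 to 9.20) lower) and Lum, for lumican, at 289.8 against 2981 CPM (10.3-fold (9.71 to 10.9) lower). Kera, Podn and Ogn were also at least 2-fold lower, whereas Omd was at least 2-fold higher. Of 22 proteoglycan genes, 10 were lower and 4 higher, with a median log2 ratio of -0.50. Of 17 elastic fibre and microfibril genes, 7 were lower, the elastin gene Eln among them at 259 against 1079 CPM, and Fbn2 alone was higher. Of 19 matricellular genes, 11 were lower and 3, Tnn, Wisp1 and Thbs4, were higher. Of 20 metalloproteases and inhibitors, 8 were lower. Adamts18, for a secreted metalloprotease, stood out on the other side at 187 against 25.1 CPM. Genes of collagen processing were mostly within 2-fold, with 2 of 20 higher and 4 lower, and Plod2, for a lysyl hydroxylase, was 2.40-fold (1.88 to 3.06) higher.

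Some transcription factors of the follicle mesenchyme were higher in the Col11a1 cells. Of 22 such genes, 8 were at least 2-fold higher (Alx4, Sox18, Tbx18, Runx2, Runx1, Foxd1, Runx3 and Prdm1) and 2, Twist1 and Zic1, were lower, with a median log2 ratio of 0.29. Sox18 was at 134 against 19.1 CPM, Tbx18 at 94.5 against 14.4, and Alx4 at 36.6 against 3.49. These factors are known from follicle mesenchyme, where Sox18 and Tbx18 also mark precursors of the papilla and sheath in the embryo.

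More signalling genes were lower than higher in each of 4 lists, and in the BMP and TGF-beta and the FGF and hedgehog lists most passed 2-fold neither way. In the WNT list 11 of 20 genes were lower and 3 higher. The secreted WNT inhibitor gene Dkk1 was at 31.2 CPM against 1.44 (21.6-fold (12.0 to 42.9) higher), while the inhibitor genes Sfrp4, Sfrp2 and Sfrp1 were lower, Sfrp2 at 2.60 against 55.1 CPM. In the BMP and TGF-beta list 8 of 22 were lower and 2 higher. The latter were Bmp3, for a BMP family ligand that counters other BMPs, at 40.2 against 3.97 CPM, and Nog, for the BMP antagonist noggin, at 27.9 against 5.53 CPM. In the FGF and hedgehog list 8 of 19 were lower, and the hedgehog receptor and target gene Ptch1 was the single higher gene at 155 against 76.1 CPM. In the IGF list 7 of 11 were lower, among them the ligand gene Igf1, and Igfbp4 and Igfbp7 were higher. Igfbp4 was at 2711 CPM (2662 to 2761) against 449 CPM. Of the genes around Ednrb, the other endothelin receptor gene, Ednra, was at 115 against 28.1 CPM, and the ligand gene Edn3 was at 3.31 and 4.21 CPM, both near 0.

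Neural genes were a further group with higher members. Of 18 axon guidance and neural genes, 7 were higher and 2 lower, with a median log2 ratio of 0.61. Stmn2, for a microtubule regulator of growing axons, was at 501 CPM (479 to 522) against 39.7 CPM. Nrtn, for the neurotrophic factor neurturin, was at 152 against 24.7 CPM. Cd200, for a membrane protein that restrains myeloid cells, was at 481 against 33.1 CPM. Nav2, for a microtubule-binding protein, and Rflnb, for a filamin-binding protein, were 12.8-fold and 7.42-fold higher. Schwann cell and melanocyte markers summed to 50.1 CPM in the Col11a1 cells and 82.2 in other fibroblasts.

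Chemokine and complement genes were lower in the Col11a1 cells. Of 11 chemokine genes 8 were lower and none higher, with a median log2 ratio of -2.36, and of 10 complement and acute phase genes 8 were lower and none higher, with a median of -2.50. C3, the central complement component, was at 4.96 against 291 CPM (58.7-fold (38.3 to 94.9) lower). Ccl11, for eotaxin, was at 6.85 against 208 CPM, and Serpina3n, for a protease inhibitor, at 9.21 against 392. Ccl8, Ifi205, Cyp2f2, Sod3, Myoc, Pcolce2 and Clec3b were the other genes with the lowest ratios, Clec3b, for tetranectin, at 17.5 against 791 CPM. Interferon response genes were lower for 3 of 10, with a median of -0.66. Reticular and adventitial fibroblast markers were lower for 7 of 11 and higher for 1, with a median of -2.63. Endothelial markers summed to 36.6 CPM in the Col11a1 cells and 607 in other fibroblasts, Ly6c1, which fibroblasts also express, making up most of the second. Pecam1 was required to be 0 in the other fibroblasts alone. Lrp1, the receptor named in the title of the study, was at 434 against 619 CPM, 1.43-fold (1.35 to 1.51) lower.

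**Figure D3:**
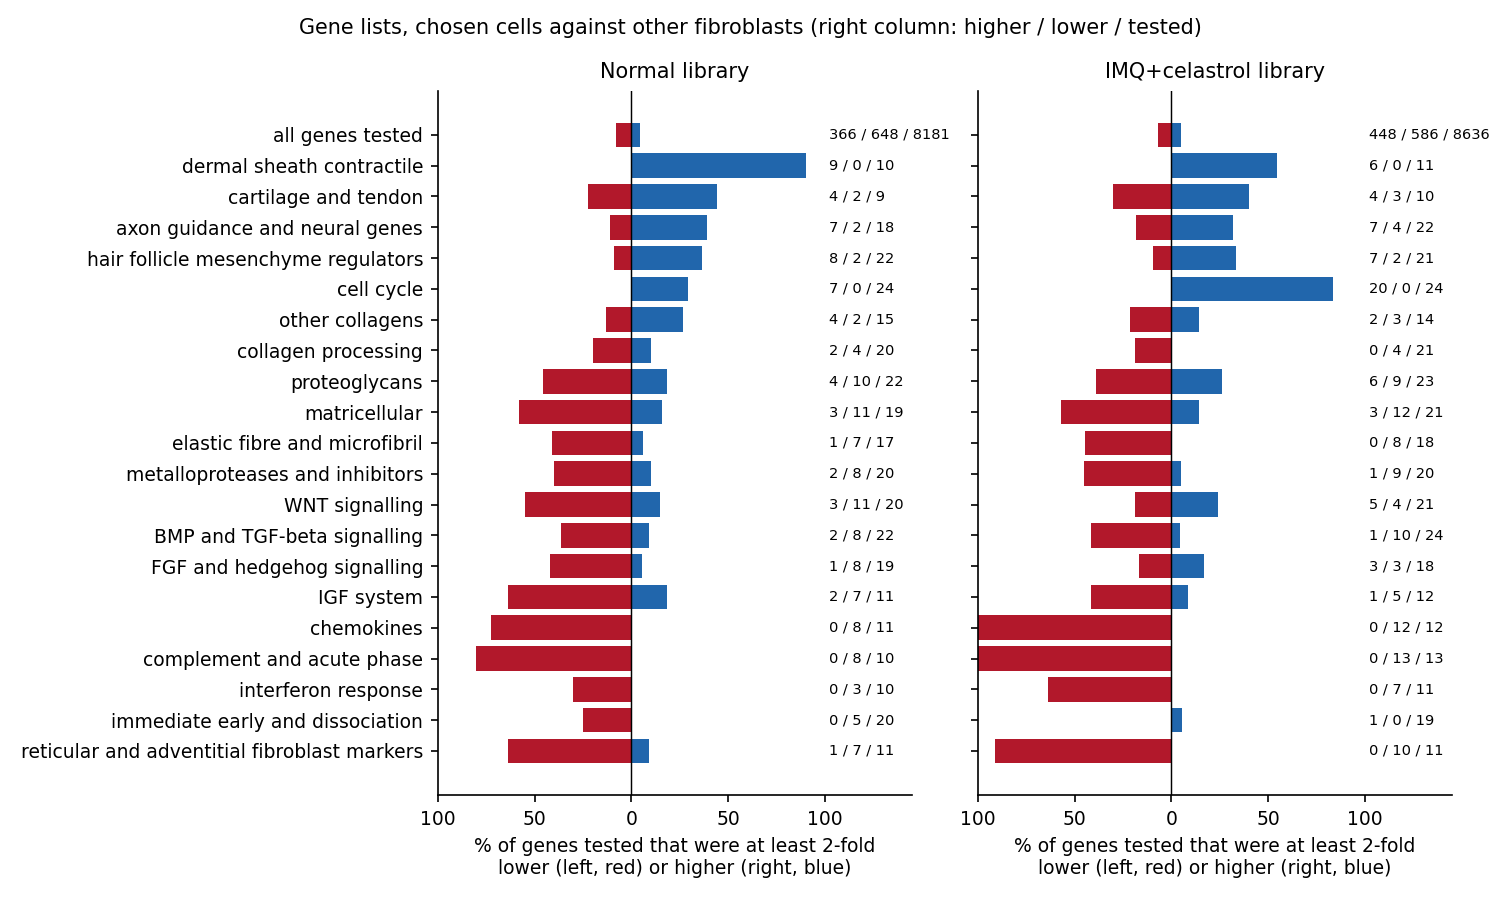
Share of the genes of each list (horizontal axis, % of genes compared) that were at least 2-fold higher (blue, right) or lower (red, left) in Col11a1 cells than in other fibroblasts of the normal and the IMQ+celastrol library, with the numbers higher, lower and compared at the right. The contractile list stands at 9 of 10 higher in the normal and 6 of 11 in the IMQ+celastrol library, and chemokines and complement genes have lower members and no higher ones in both.

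Of 24 cell cycle genes 7 were higher and none lower in the normal library, with Top2a, for a topoisomerase, at 80.3 against 29.6 CPM. At least 2 UMIs of Mki67, Top2a, Cdk1, Ccnb1 or Birc5 were held by 10.1% of the thinned Col11a1 cells and 3.94% of the other fibroblasts, and by 10.7% of keratinocyte gate cells. No UMI of these genes was held by 85.1% of the thinned Col11a1 cells and 92.5% of the other fibroblasts. Without cells holding 2 or more of these UMIs the log2 ratio of Top2a was -0.12 and that of Birc5 -0.26. Both are among the genes that chose the cells left out, so this fall was set by the choice. Immediate early genes, which cell isolation can induce, were lower for 5 of 20 and higher for none.

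Next to the dermal papilla gate, the 127 normal cells that met the collagen condition and had 4 or more of the barred genes, the Col11a1 cells were set apart mainly by what they lacked. Of 8614 genes compared, 309 (3.59%) were at least 2-fold higher and 1230 (14.3%) at least 2-fold lower in the Col11a1 cells, with a median log2 ratio over all genes of -0.30. All 9 papilla markers outside the rule that passed the filter were lower. The papilla gate was chosen by papilla genes, and against other fibroblasts only 4 of 11 such markers passed the filter. This count thus follows in part from the choice of the sets and is a description. Rspo3, which encodes an amplifier of WNT signals, was at 2.36 against 613 CPM and Edn3, for endothelin 3, at 3.31 against 419 CPM (127-fold (74.5 to 234) lower). Edn3 had a UMI in 57.4% of the thinned papilla gate cells and 0.676% of the thinned Col11a1 cells, beside 0.265% of keratinocyte gate cells. The receptor gene Ednra was within 2-fold between these sets, at 115 against 67.5 CPM, and Ednrb, a gene of the rule, was at 938 against 139.5 CPM.

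The follicle regulators and signalling genes were lower than in the papilla gate, for 17 of 29 regulators, 12 of 22 WNT genes and 14 of 24 BMP and TGF-beta genes. Alx4, higher than in other fibroblasts, was 3.84-fold (3.01 to 4.89) lower than in the papilla gate, whereas Sox18 was 1.69-fold (1.43 to 1.99) lower, less than 2-fold, and Foxd1 and Tbx18 were 3.65-fold and 2.27-fold higher. Prlr, the prolactin receptor gene, Slc26a7, Ptprz1, Ndnf, Sfrp2 and Pappa2 had the other lowest ratios, Prlr with 3 UMIs in the Col11a1 cells. The contractile list was higher for 4 of 11 genes and lower for none: Acta2 was 3.57-fold (3.31 to 3.85) higher, Actg2 4.04-fold (3.17 to 5.24) higher, Tagln 2.60-fold (2.39 to 2.84) higher and Smtn 2.03-fold (1.45 to 2.93) higher. Dkk1, with 1 UMI in the papilla gate, was 27.7-fold (4.89 to 1103) higher.

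Among the genes highest against the papilla gate, Matn4, Thbs4, Nrtn, Arhgdib and Hspb2, for a small heat shock protein of muscle, had 6.30-fold to 8.16-fold ratios. Krtdap, Calm4 and Cd74 also had high ratios but came from few cells. Krtdap, a keratinocyte gene, had 789 UMIs in 30 of the 466 cells, of which 397 were in 1 cell, and Cd74, an antigen presentation gene of leukocytes, 653 UMIs in 34 cells. Cd74 had a log2 ratio of -0.45 in place of 2.66 when cells with Ptprc, Pecam1 or a high keratin sum, or without Pdgfra, were left out of both sets. Basal and follicle keratinocyte markers summed to 1448 CPM in the Col11a1 cells and 1384 in other fibroblasts, and leukocyte markers to 284 and 160.3 CPM, with Ptprc at 3.07 CPM in the Col11a1 cells. Their part in the ratios beyond this was not tested.

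The Col11a1 cells of the normal library were not uniform. Leiden clustering of the 466 cells gave 5 groups, described by their genes and not tested. The 169 cells of group 1 were led by Gpha2, Kank4, Thbs4, Matn4 and Acta2, and held 5222 CPM of Acta2 and 1721 of Ednrb. Gpha2 had a UMI in 32 of these cells and Acta2 in 164. The 87 cells of group 2 were led by Pi16, Coch and Ly6c1, which had a UMI in 31, 34 and 38 of them. Group 2 held 679 CPM of Acta2 and 198 of Ednrb. Coch was at 863 and Dcn at 3073 CPM, against 11.0 and 458 CPM in group 1. Of these 2 groups, the one high in Acta2 and Ednrb was low in Coch and Dcn, and the other the reverse.

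The 81 cells of group 3 were led by the response genes Cxcl1, Irf1, Icam1 and Ccl2, with Acta2 at 1768 CPM. Irf1 had a UMI in 48 of these cells, Icam1 in 33, Ccl2 in 14 and Cxcl1 in 12. The 71 cells of group 4 held 1696 CPM of Stmn2 and 221 of Corin, a papilla gene of the rule, against 349.6 and 4.80 CPM in group 1. Lum and Matn4 were both at 6.85 CPM in group 4, and Ptprc was at 8.57 CPM. The leukocyte genes Lyz2, H2-Eb1 and Cd74 were among its leading genes through few cells, since all 62 UMIs of Lyz2 were in 1 cell and the 161 of H2-Eb1 and 489 of Cd74 in 4 cells each. The 58 cells of group 5 were led by keratinocyte genes and cell cycle genes. Of the latter, Ube2c had a UMI in 36 and Nusap1 in 27 cells. Of the keratinocyte genes, Dmkn had a UMI in 19 cells, Calm4 in 17, Dsc3 in 16, Ly6d in 14, Krtdap in 9 and Krt16 in 4. All 300 Flg UMIs were in 1 cell, and Krt14, not a leading gene, had a UMI in 22. The cells of group 5 held a median of 12258 UMIs and included 9 of the 13 Col11a1 cells of this library that were called as doublets. These groups differed in the rule genes as well as in others, so their sizes follow from the cells' choice.

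Levels also differed across the edge of the rule, and not in the same order in each library. In the normal library Acta2 was at 3166 CPM in the 421 Col11a1 cells with 3 or more UMIs of Col11a1, at 803 CPM in the 45 with exactly 2, and at 534 CPM in the 68 cells outside with 1. Coch was at 99.98, 1028 and 789 CPM in these sets and Dcn at 815, 2411 and 2515 CPM. In the IMQ+celastrol library the order of Acta2 was the opposite, at 582 CPM in the 71 cells with 3 or more, 933 in the 27 with exactly 2 and 2480 in the 56 outside with 1. In the IMQ library it was at 1036, 990 and 360 CPM in 22, 14 and 17 cells.

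Clustering the 600 cells of the 3 libraries together, a step added after seeing the data, put most cells of the treated libraries into groups that held few normal cells. Group 5 of this clustering, with 12 cells from the normal, 11 from the IMQ and 48 from the IMQ+celastrol library, was led by Coch, Hsd11b1 and Fmod. It held 11957 CPM of Coch, 1923 of Crabp1, 1025 of Trps1 and 8703 of Dcn, with Acta2 at 78.4 and Ednrb at 1.91 CPM. Coch encodes the extracellular protein cochlin, Fmod the collagen-binding fibromodulin, and Crabp1, Fmod and Trps1 are listed among papillary fibroblast markers. The adventitial gene Pi16 was at 1400.4 CPM in the same group. Group 6, with 8, 25 and 33 cells from these libraries, was led by Fabp4, Spp1, Il6 and Tnn, of which Fabp4 had a UMI in 3 of the 66 cells, Il6 in 15, Spp1 in 24 and Tnn in 48. Acta2 was at 1574 CPM against 2530 in the cells of the other groups, Tpm1 at 530 against 1277 and Tagln at 1232 against 1460. It held 556 CPM of Tnn and 527 of Wif1, but 158 CPM of Ednrb. The groups with most normal cells were group 1 (184 normal cells and none of the others, Acta2 at 4826 CPM), group 2 (94 normal and 7 IMQ+celastrol cells, led by cell cycle genes), group 3 (84 normal cells, Stmn2 at 1603 CPM) and group 4 (68 normal and 8 IMQ+celastrol cells, Dcn at 3846 CPM). Group 7, with 16 normal and 2 IMQ+celastrol cells and a median of 16314 UMIs, was led by Flg and other keratinocyte genes, and 11 of its 18 cells were called as doublets.

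**Figure D4:**
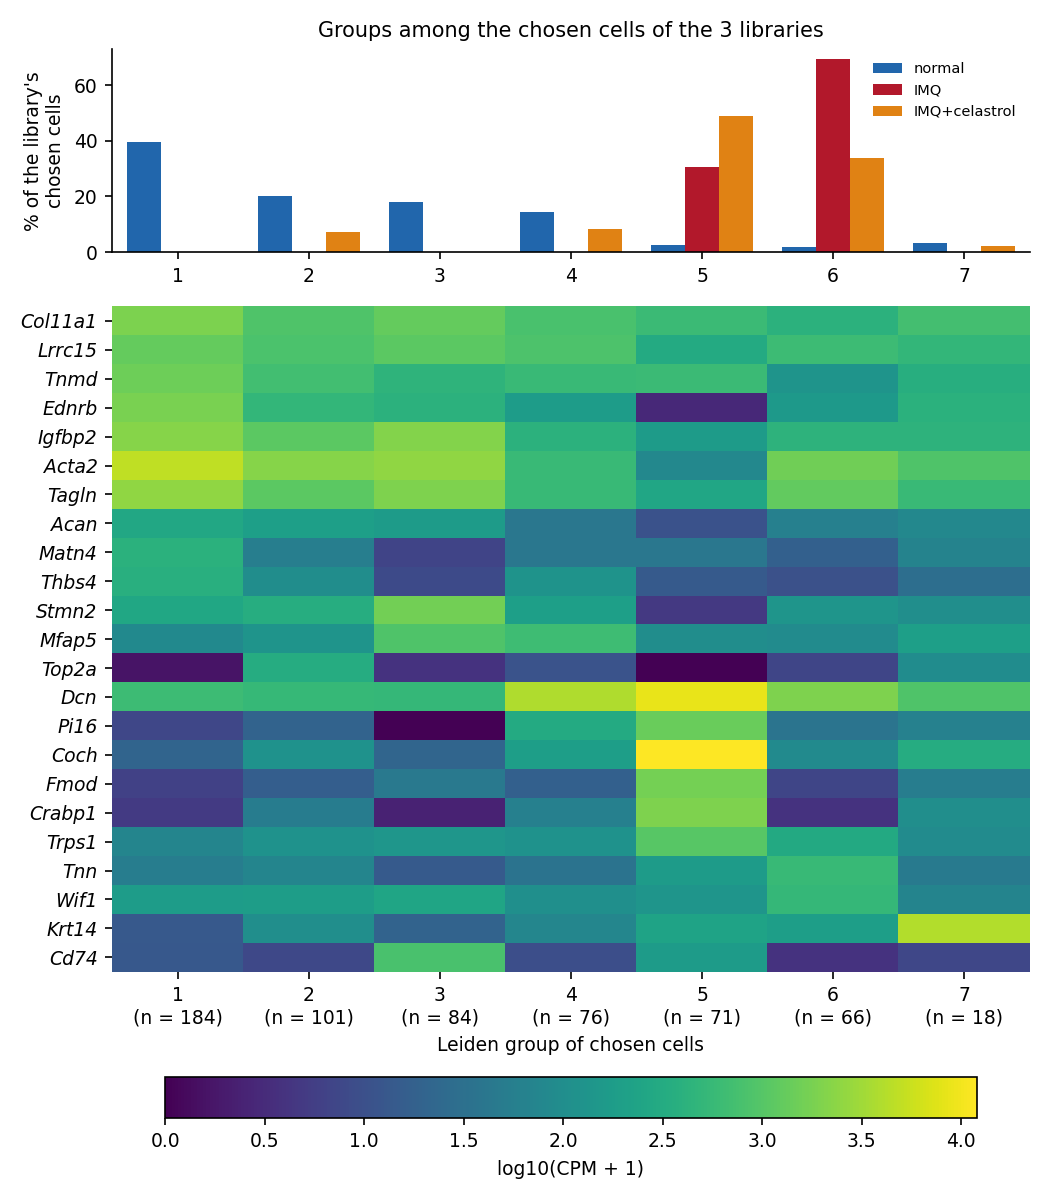
The upper panel gives the share of each library's Col11a1 cells (vertical axis, %) in the 7 groups found when all 600 were clustered together, and the lower panel the level of 23 genes in each group as log10 of CPM plus 1, from dark (0) to yellow (highest). Groups 1 and 3 hold normal cells alone, and groups 5 and 6 hold all 36 IMQ cells and most IMQ+celastrol cells. In group 5 Ednrb is dark and Acta2 is at its lowest of the 7 groups, while Coch, Fmod and Crabp1 are bright.

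Contractile genes were thus high in most cells of the normal library. Of 8 further sheath genes, 4 were at least 2-fold higher than in other fibroblasts. Acta2 was lower, at 679 CPM, in the 87 cells of group 2 of the normal library's own clustering. Ednrb was at 198 CPM there, but it is a gene of the rule. In the other libraries the data went against the name for many of the cells. In the IMQ and IMQ+celastrol libraries 11 of 36 and 48 of 98 cells belonged to group 5 of the joint clustering. In this group Acta2, which is outside the rule, was at 78.4 CPM, and the rule gene Ednrb was nearly absent. These cells are called Col11a1 cells here and no more. With 36 and 98 cells, a few cells also decided single levels. Values of these libraries are given with that limit.

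Within the IMQ+celastrol library, the contrast with its own 1987 other fibroblasts gave 448 of 8636 genes (5.19%) at least 2-fold higher and 586 (6.79%) at least 2-fold lower. The contractile list was higher for 6 of 11 genes and lower for none, with Tagln at 736 against 263 CPM and Itga8 at 48.7 against 16.7 CPM. Acta2 was at 657 CPM (610.3 to 706) against 334 CPM, 1.96-fold (1.82 to 2.12) higher and just under 2-fold. Acta2 had a UMI in 30.6% of the thinned Col11a1 cells of this library, and also in 12.8% of keratinocyte and 17.5% of T cell gate cells, so its background was higher than in the normal library.

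The matrix contrast of the normal library was partly present here. Acan was 14.7-fold (9.51 to 22.7) higher than in other fibroblasts at 36.3 CPM, Col12a1 2.34-fold (2.12 to 2.59) higher at 394 CPM and Igfbp4 3.68-fold (3.43 to 3.95) higher at 848 CPM. Dcn was 2.59-fold (2.52 to 2.66) lower at 4523 CPM. Of the follicle regulators 7 of 21 were higher, with Sox18 8.05-fold (5.21 to 12.2) higher and Foxd1 6.78-fold (5.15 to 8.83) higher. All 12 chemokine genes and all 13 complement and acute phase genes that passed the filter were lower, C3 at 58.5 against 1764 CPM. Myoc, Hmcn2, Ifi205, Plac8, C4b, Cp and Mmp3, for stromelysin, had the other lowest ratios. Leaving the rule genes aside, 7920 genes were compared in both libraries. Of these, 274 were higher in the normal contrast and 377 in the IMQ+celastrol contrast. Of the 274, 130 were also higher and 8 were lower in the IMQ+celastrol contrast. Of 634 genes lower in the normal contrast, 334 were among the 494 lower in the IMQ+celastrol contrast and 11 were higher there.

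Coch, Fmod and Gldn, among the highest genes of this library, were not 2-fold higher than in other fibroblasts of the normal library, while Tnn and Cd200 were higher in both. Tnn was at 300.4 against 21.7 CPM, Coch at 3651 against 416, Fmod at 483 against 61.4, and Gldn, for gliomedin, at 235 against 27.7 CPM. Cd200 was at 119 against 14.3 CPM. Cck, the cholecystokinin gene, had 155 UMIs in 13 of the 98 cells and 80 of them in 1 cell. The epidermal genes Krt6a and Defb6 had 277 of 318 and 193 of 205 UMIs in 1 cell each, and without the called doublets their log2 ratios were -0.039 and -0.067 in place of 2.87 and 3.85. Cell cycle genes were higher for 20 of 24. At least 2 cycling UMIs were held by 7.14% of the thinned Col11a1 cells, which is 7 of 98. The share was 1.76% in other fibroblasts and 17.3% in keratinocyte gate cells. Without such cells the log2 ratio of Mki67 was -0.83 in place of 1.87, but Mki67 is among the genes that chose them.

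Between libraries, the Col11a1 cells of the IMQ+celastrol library held less of several contractile transcripts than those of the normal library. Acta2 was at 2980.2 (2928 to 3033) CPM in the normal, 1019 (904 to 1144) in the IMQ and 657 (610.3 to 706) in the IMQ+celastrol library. Other fibroblasts ran the other way for this gene, at 53.3, 233 and 334 CPM. The background of Acta2 given above was also higher in the IMQ+celastrol than in the normal library, and its part in this was not tested. Of 11 contractile genes 6 were at least 2-fold lower in the Col11a1 cells of the IMQ+celastrol than of the normal library and none higher, where in other fibroblasts 5 of 11 were higher and none lower. Of 9 further sheath genes 3 were lower and 2, Edn3 and Tnn, higher, with a median log2 ratio of -0.01. The Acta2 levels bear the limit given above, that cells just outside the rule held more of it in the IMQ+celastrol library. Over all genes, 676 of 8319 (8.13%) were higher and 294 (3.53%) lower in the Col11a1 cells, with a median log2 ratio of 0.20, and 235 of 8417 (2.79%) higher and 133 (1.58%) lower in other fibroblasts, with a median of 0.11. The cells compared also differ in their mix of the groups described above, and counts of 98 and 466 cells differ in precision, and treatment, library and this mix cannot be told apart.

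Acan, Stmn2 and Matn4 were lower in the same direction. Acan was at 198, 21.4 and 36.3 CPM in the normal, IMQ and IMQ+celastrol Col11a1 cells. Stmn2 was at 501, 32.1 and 50.5 CPM, and Matn4 at 176, 21.4 and 20.4 CPM. Adamts18 was at 187 CPM in the normal library, had no UMI in the IMQ cells and 4 UMIs in the IMQ+celastrol cells, and in other fibroblasts it also was at 25.1, 0.522 and 0.641 CPM. Dkk1 and Bmp3 had 132 and 170 UMIs in the normal cells and 1 and 0 in the IMQ+celastrol cells. Cd74, Slco2a1, for a prostaglandin transporter, Col14a1, Rgcc and Nid2 were the other genes with the lowest ratios.

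**Figure D5:**
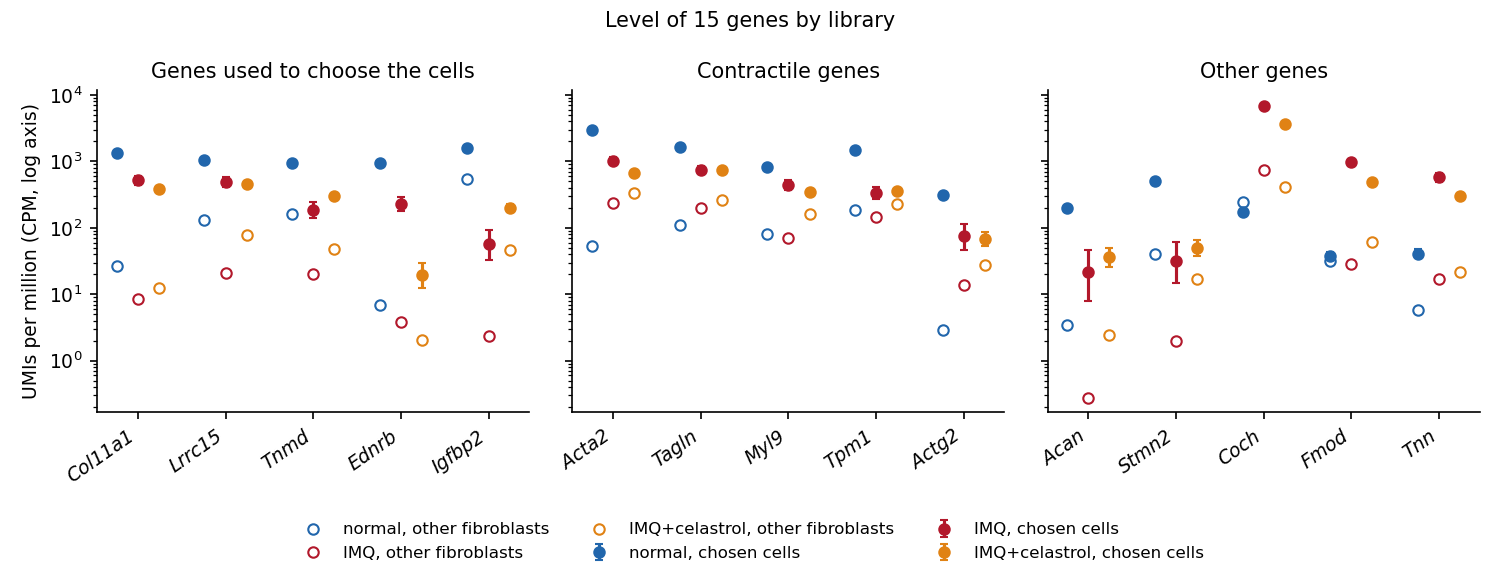
Level of 15 genes (vertical axis, CPM, log scale) in Col11a1 cells (filled, with 95% Poisson intervals of the count) and other fibroblasts (open) of the normal, IMQ and IMQ+celastrol libraries. The left panel holds genes of the rule, where Col11a1 cells are high by choice. In the middle panel the contractile genes of the normal Col11a1 cells lie highest, and in the right panel Coch, Fmod and Tnn are highest in the IMQ cells.

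Both papillary and reticular fibroblast markers had higher members. Of 9 papillary markers 5 (Fmod, Axin2, Dpp4, Dkk2 and Trps1) were higher in the IMQ+celastrol than in the normal Col11a1 cells and none lower, with a median log2 ratio of 2.30, against 0 of 9 higher in other fibroblasts. Of 11 reticular and adventitial markers 6 (Gpx3, Pi16, Cd34, Cilp, Ly6a and Dpp4, which is in both lists) were higher and 3 (Thbs4, Mfap5 and Cd55) lower, with a median of 1.05. Coch was at 173 (161 to 186) CPM in the normal, 6713 (6413 to 7023) in the IMQ and 3651 (3541 to 3764) in the IMQ+celastrol cells. In the IMQ library its 1884 UMIs came from 15 of 36 cells, with at most 266 in 1 cell. Fmod was at 37.3, 969 and 483 CPM, and Tnn at 40.6, 574 and 300.4 CPM. Meox2, for a homeobox factor, Gpm6b and Gldn were 23.1-fold (14.3 to 39.1), 14.9-fold (12.2 to 18.4) and 14.8-fold (11.3 to 19.7) above the normal cells in the IMQ+celastrol library. Cilp, for a cartilage intermediate layer protein, was at 68.7, 1105 and 306 CPM.

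Pan-fibroblast and growth signal genes also had higher members. Dcn was at 941, 6199.9 and 4523 CPM in the Col11a1 cells and Lum at 289.8, 335 and 1143 CPM. In the WNT list 9 of 19 genes were higher and 2 lower in the IMQ+celastrol cells, and in other fibroblasts none of 21 passed 2-fold either way. Edn3, near 0 in the normal Col11a1 cells, was at 53.4 and 31.0 CPM in the IMQ and IMQ+celastrol cells. Igf1 was at 39.2, 424 and 283 CPM.

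Complement and acute phase genes were higher in the IMQ+celastrol than in the normal Col11a1 cells, whereas chemokines were mixed, with 3 of 10 higher and 2 lower. Serpina3n was at 9.21, 595 and 259 CPM in Col11a1 cells and 392, 2822 and 1462 CPM in other fibroblasts. Saa3, an acute phase gene, was not detected in any of the 466 normal cells. It was at least 178-fold higher in the IMQ+celastrol cells, at 126 CPM against 1968 in other fibroblasts. In the IMQ cells 187 of its 270 UMIs were in 1 cell. Complement and acute phase genes were higher for 7 of 10 in the IMQ+celastrol Col11a1 cells and for 9 of 14 in other fibroblasts. The heat shock genes Hspa1a and Hspa1b, which also respond to cell isolation, were at 282, 1607 and 788 CPM and 295, 1603 and 845 CPM. Immediate early genes were higher for 3 of 19 in the IMQ+celastrol cells and lower for none. In the 36 IMQ cells the median log2 ratio of this list to the normal cells was 1.70, beside 0.24 over all genes. Krt6a was higher in the IMQ+celastrol cells mainly through the 1 cell named above, and basal and follicle keratinocyte markers summed to 1448, 388 and 2777 CPM in the normal, IMQ and IMQ+celastrol Col11a1 cells. Leukocyte markers summed to 284, 631 and 118 CPM, and endothelial markers to 36.6, 346 and 157 CPM. In the IMQ cells all 31 UMIs of Lyve1 and all 15 of Cldn5 were in 1 cell for each gene. Their part in these levels was not tested.

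Lrp1 was at 434 (414 to 454) CPM in the normal, 1037 (921 to 1163) in the IMQ and 606 (562 to 653) in the IMQ+celastrol Col11a1 cells, and at 619, 1507 and 1160.3 CPM in other fibroblasts. It was thus lower in the Col11a1 cells in each library, by less than 2-fold, and in both cell sets highest in the IMQ library.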

How the data were processed

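Skin cells of 3 groups, 1 library each, were profiled as 3′ transcripts in droplets. The authors deposited UMI counts per gene and barcode. Per the file headers, Cell Ranger 4.0.0 made them, and the builds mm10 and GRCm38 are given in the submitters' processing notes. The members and gene lists were chosen with earlier results of these data known. Barcodes with under 300 genes (66 normal, 131 IMQ and 187 IMQ+celastrol) or over 20% mitochondrial UMIs (71, 97 and 168) were dropped. Doublets were called with Scrublet (182, 0 and 92 cells). Since no IMQ cell was marked, the 513 IMQ cells with the highest scores served instead, and called doublets were left out only as an alternative. Counts were summed over the cells of a set and given as CPM. A gene with a mean of at least 10 CPM was compared, and called higher or lower at 2-fold on CPM plus 1. The genes named are the 20 highest and 10 lowest of the main contrast and the 8 highest and lowest of each other contrast, each by ratio among genes with a mean of at least 50 CPM, with up to 6 genes of each list; any other gene named was chosen after its values were seen. Other fibroblasts were not Col11a1 cells and met the same collagen threshold, without matching of the collagen level. They had a UMI of Pdgfra, fewer than 4 of the barred genes, none of Ptprc or Pecam1, and keratin UMIs below collagen UMIs. Intervals are 95% Poisson, conditional binomial for folds and Clopper-Pearson for shares, and cover counting error only. A fold against 0 is taken against a floor of 3 counts. Shares of cells used cells thinned to 3000 UMIs. Groups came from Leiden clustering (1000 variable genes, 15 components, 15 neighbours, resolution 0.5) in scanpy 1.11.5 with leidenalg 0.10.2 under Python 3.11.15. The procedure was tested on simulated data. With 1 library per group there was no replicate test. Results for some genes are not reported here.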

Additional observations from a re-analysis of the deposited data

Results flagged for a closer look

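Genes are given here whose ratio of Col11a1 cells to other fibroblasts was at least 2-fold one way in the normal library and at least 2-fold the other way in the IMQ+celastrol library. With 1 library per group the difference was not tested, and all values are log2 ratios of CPM plus 1. Higher in the normal and lower in the IMQ+celastrol library were Col6a6, a collagen VI chain gene, at 1.41 and -4.70, Thbs4, for thrombospondin 4, at 1.02 and -4.05, Slco2a1, for a prostaglandin transporter, at 2.45 and -2.13, and Epha3, for an ephrin receptor, at 1.33 and -1.31. Lower in the normal and higher in the IMQ+celastrol library were Gldn at -1.92 and 3.04, Kera, for the proteoglycan keratocan, at -2.05 and 2.31, Meox2 at -2.19 and 1.98, Dkk2, for a WNT inhibitor, at -1.15 and 1.57, and Mkx, for a tendon transcription factor, at -1.32 and 1.15. In the IMQ+celastrol Col11a1 cells Gldn had 265 UMIs in 53 cells, Kera 96 in 27 and Meox2 123 in 34.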

How the results depend on the processing

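No paired analysis was possible because each group had 1 library, and for the same reason no replicate could be left out. Of the single-gene ratios under the alternatives, 7490 stayed the same, 1059 moved and 19 reversed. The share of Col11a1 cells was (normal, IMQ, IMQ+celastrol) 5.12%, 0.662% and 2.40% with 1 UMI of Col11a1 required, 4.04%, 0.275% and 1.11% with 3, and 21.5%, 1.38% and 4.68% of fibroblast gate cells. With cells thinned to 3000 UMIs before the rule it was 0.190% (IMQ) and 0.358% (IMQ+celastrol), and within the main interval in the normal library. With a pseudocount of 10 CPM, 235 genes were higher than in other fibroblasts in the normal and 244 in the IMQ+celastrol library, 190 were higher and 678 lower than in the papilla gate, and 309 were higher and 193 lower in IMQ+celastrol than in normal Col11a1 cells. With a mean of at least 50 CPM the numbers higher and lower in these contrasts, in the same order, were 147 and 260, 119 and 261, 137 and 301, and 183 and 120. With no filter they were 748 and 1354, 1199 and 1375, 983 and 3105, and 1570 and 1025. The filters change the number of genes compared. Top2a, Birc5 and Mki67 are among the genes by which cycling cells were chosen, so their fall without these cells was set by that choice. Without cycling cells the log2 ratio was -0.12 for Top2a and -0.26 for Birc5 against other fibroblasts and -0.45 for Birc5 and -0.44 for Cenpa against the papilla gate. In the IMQ+celastrol library it was -0.83 for Mki67, -0.25 for Ccnb2, -0.79 for Ccna2, -0.22 for Tpx2, -0.60 for Aurkb and -0.32 for Rrm2. Without called doublets it was 0.12 for Ccl7 against the papilla gate, -0.067 for Defb6, -0.039 for Krt6a and -0.57 for Sox9 in the IMQ+celastrol library, and -0.99 for Sox9 between libraries. With the conditions of other fibroblasts set on the Col11a1 cells, an alternative chosen after seeing the data, it was -0.45 for Cd74 against the papilla gate, -0.052 for Krt6a and -0.20 for Sox9 in the IMQ+celastrol library, and -0.48 for Sox9 between libraries. Beyond what these constructions show, the cause was not tested. Counts of 36 and 98 cells limit the treated libraries.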

Other observations

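Retinoid genes were divided in the normal Col11a1 cells. Of 11 genes compared with other fibroblasts, 2, Crabp2 and Rarres1, were at least 2-fold higher and 4, Rbp4, Rarres2, Aldh1a1 and Cyp26b1, lower, with a median log2 ratio of -0.10. Crabp2, for a carrier of retinoic acid, was at 40.4 against 7.70 CPM, and Aldh1a1, for an enzyme that makes retinoic acid, at 1.42 against 27.7 CPM. Of 17 integrin and adhesion genes, 4 (Itga8, Itga1, Cdh13 and Cdh11) were higher and 3 (Cadm3, Icam1 and Vcam1) lower. Itga8, for an integrin chain of contractile mesenchyme, was at 39.2 against 8.30 CPM. Vcam1, for a ligand of leukocyte integrins, was at 25.5 against 67.7 CPM.

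In the 36 IMQ Col11a1 cells the follicle regulators Foxd1, Prdm1 and Runx3 were at 114, 143 and 196 CPM, and none of these cells held a UMI of the 5 cycling genes after thinning.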
